A study of Rattus norvegicus with 17 samples.

Results

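The 9 genes described here encode proteins of mitochondrial fatty acid oxidation and ketone body synthesis: Cpt1a, Cpt2, Acadm, Acadl, Acadvl, Hadh, Hadha, Hadhb and Bdh1. A probe set was taken when its annotation named exactly 1 gene symbol and that symbol was among the 9, which gave 14 of the 31042 probe sets that are not array controls, and 9 of 14217 genes with a probe set of their own. Liver RNA of 17 rats was hybridised to Affymetrix expression arrays of the rat genome, each rat on its own array. Recombinant ghrelin, at 10 µg/kg/day from an osmotic minipump under the skin, was given after bile duct ligation to the 5 ligated ghrelin rats. A pump with saline was implanted in the 6 ligated saline rats, which had the same ligation, and in the 6 sham rats, which had an abdominal incision. Rats of all groups were operated at week 7 and killed at week 9, after 2 weeks of infusion. No group held sham rats on ghrelin, so that the hormone without ligation was not measured. The labels used give no strain, sex, batch or feeding state.

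Hepatocytes burn long-chain fatty acids inside mitochondria. The acyl chain is carried across the inner membrane as a carnitine ester, and is then shortened in a repeated cycle of dehydrogenation, hydration, a second dehydrogenation and thiolysis, each round of which releases acetyl-CoA. In fasting much of this acetyl-CoA is condensed into ketone bodies, which the liver exports as fuel for other organs and does not itself burn. Many of the genes are known targets of the nuclear receptor PPAR-alpha. Bile duct ligation blocks bile flow and produces cholestatic injury, growth of bile ducts and fibrosis, and ghrelin is a stomach hormone known for raising appetite and growth hormone release.

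Values are log2 of the deposited intensity, and a change is a difference between group means on that scale with its standard error from limma. No 2 arrays held identical values. The median intensity of an array lay between 15.4 and 16.4 in ligated ghrelin, between 16.1 and 17.6 in ligated saline and between 14.2 and 14.7 in sham rats. The median change of the 9736 genes tested, for ligated saline minus sham, was 0.07 as deposited, -0.05 when quantile normalized and -0.12 when all arrays were given the same median. Of the genes called between these groups, 58.0% were higher as deposited, 46.9% when quantile normalized, 41.8% with the same median on all arrays and 39.3% without the filter on dim probe sets. Alb, Apoa1 and Ttr, which define hepatocytes, lay between 14.50 and 15.92 on every array, which fits the labelled tissue. Of the 14 probe sets, 11 passed the filter (an intensity above 15.5, or 3.95 in log2, on at least 5 arrays). The 3 others, 1389922_at of Hadh and 1394763_at and 1394857_at of Hadha, lay between 1.94 and 3.07 on all arrays and were not tested.

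What ligation did to these genes was read from ligated saline against sham rats. All 9 were lower after ligation at an adjusted p under 0.05 (limma, Benjamini-Hochberg over all probe sets kept), where 27.2% of all genes tested were called lower. The largest decreases were those of Bdh1 at -1.84, Cpt1a at -1.38, Cpt2 at -1.21 and Hadh at -1.19, and the smallest was that of Hadhb at -0.25. The median of the 9 changes was -0.88. In 8 of the 9 genes no ligated saline rat reached the lowest sham rat, where 18.6% of all genes had groups that did not overlap and were lower. Because whole liver was measured, fewer hepatocytes and less RNA per hepatocyte cannot be told apart.

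Cpt1a makes the carnitine ester at the outer mitochondrial membrane and is the rate-limiting enzyme of the pathway. It lies at chr1:209993881-210056329 on the plus strand of the assembly GRCr8. Its brighter probe set, 1386946_at, read 10.60, 10.68, 10.13, 10.70 and 11.34 in the 5 ligated ghrelin rats. In ligated saline rats it had a lowest value of 10.22, a median of 11.04 and a highest of 11.76, and in sham rats 11.82, 12.42 and 12.64. Both ligated groups lay below all sham rats, and ligated saline 6 and sham 1 came nearest to each other. The change of -1.38 ± 0.23 (SE, n = 6 and 6) left ligated saline rats at 38.4% of the sham level (adjusted p = 6.97e-05). The dimmer probe set, 1367836_at, was lower too, with a change of -1.66 ± 0.371 (adjusted p = 0.00102).

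Cpt2 turns the carnitine ester back into acyl-CoA on the inner side of the inner membrane and lies at chr5:127893450-127911347 on the minus strand. It read 8.54, 9.14, 8.63, 9.14 and 9.40 in ligated ghrelin rats. The lowest, median and highest values were 8.21, 8.85 and 9.26 in ligated saline and 9.67, 10.04 and 10.43 in sham rats. No ligated rat of either group reached the sham range. Ligation changed it by -1.21 ± 0.194, to 43.1% of the sham level (adjusted p = 4.62e-05). Slc25a20, the carrier that exchanges acylcarnitine for carnitine between both enzymes, changed by -0.82 ± 0.124 (adjusted p = 2.69e-05), so that the 3 genes of the shuttle were each called lower.

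**Figure D1:**
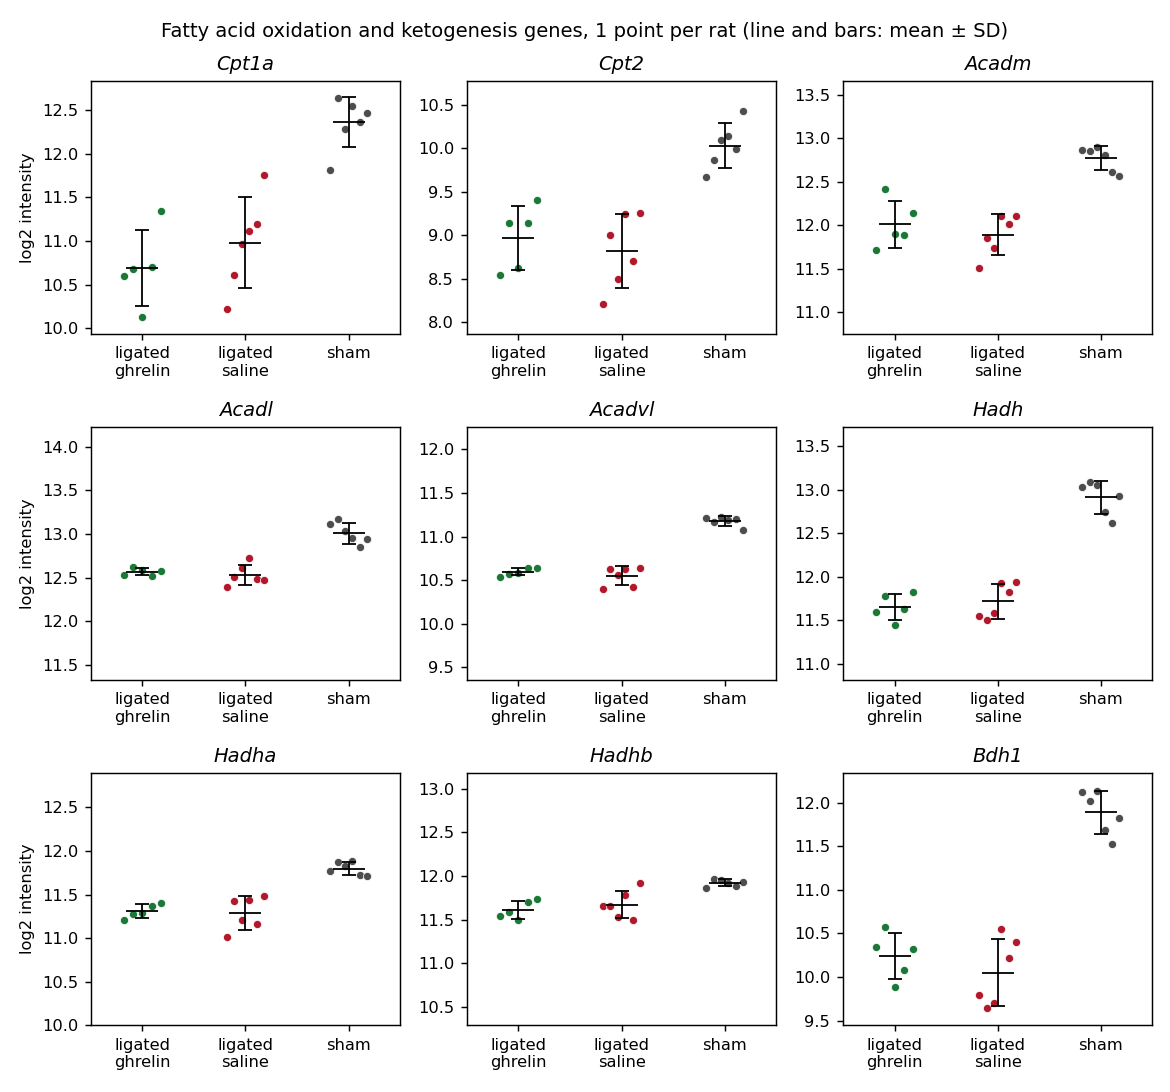
Log2 intensity of the 9 genes, 1 point per rat, with the mean and SD of ligated ghrelin (n = 5), ligated saline (n = 6) and sham rats (n = 6). All panels span the same width on the log2 axis at their own level, and only in Hadhb does a ligated rat, with 11.92, lie within the sham range.

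The acyl-CoA dehydrogenases carry out the opening step of each round and differ in the chain length they prefer. Acadvl, the very-long-chain enzyme, lies at chr10:55231558-55236786 on the minus strand. It read 10.54, 10.57, 10.58, 10.64 and 10.64 in ligated ghrelin rats, with 10.40, 10.59 and 10.64 as lowest, median and highest in ligated saline and 11.08, 11.20 and 11.22 in sham rats. Its groups were narrow and well apart, and the change of -0.63 ± 0.0612 had an adjusted p of 2.23e-07. Acadl, the long-chain enzyme at chr9:75783689-75822077, read 12.53, 12.62, 12.59, 12.52 and 12.58 in ligated ghrelin rats. Its lowest, median and highest values were 12.39, 12.50 and 12.73 in ligated saline and 12.85, 12.99 and 13.17 in sham rats, again without overlap. Ligation changed Acadl by -0.48 ± 0.0715, to 71.8% of the sham level (adjusted p = 2.3e-05).

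Acadm, the medium-chain enzyme, lies at chr2:245518693-245542864 on the minus strand. It read 11.72, 12.42, 11.90, 11.89 and 12.14 in ligated ghrelin rats, and ligated ghrelin 2 stood closest to the sham range. The lowest, median and highest values were 11.51, 11.93 and 12.11 in ligated saline and 12.57, 12.83 and 12.90 in sham rats. The change of -0.88 ± 0.125 left 54.4% of the sham level (adjusted p = 1.37e-05). Acads, the short-chain enzyme of the same family, changed by -1.16 ± 0.151 (adjusted p = 5.76e-06), so that the dehydrogenases of all 4 chain-length classes were called lower.

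Hadh, which oxidises medium- and short-chain hydroxyacyl-CoA, lies at chr2:222462049-222504446 on the minus strand. It read 11.59, 11.78, 11.45, 11.63 and 11.83 in ligated ghrelin rats. The lowest, median and highest values were 11.50, 11.70 and 11.94 in ligated saline and 12.62, 12.98 and 13.09 in sham rats, a gap wider than the spread within any group. The change was -1.19 ± 0.107, to 43.9% of the sham level (adjusted p = 1.03e-07). Averaged with its dim probe set, Hadh changed by -0.73.

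Hadha and Hadhb encode the alpha and beta subunits of the mitochondrial trifunctional protein, which performs the later steps of the cycle on long chains. Hadha read 11.21, 11.28, 11.29, 11.37 and 11.41 in ligated ghrelin rats, with 11.01, 11.32 and 11.49 as lowest, median and highest in ligated saline and 11.71, 11.80 and 11.89 in sham rats. It was lower after ligation without overlap, by -0.51 ± 0.0831 (adjusted p = 5.33e-05). Averaged with the 2 dim probe sets the Hadha change was -0.21. Hadhb read 11.54, 11.59, 11.50, 11.70 and 11.73 in ligated ghrelin rats, with 11.50, 11.66 and 11.92 in ligated saline and 11.86, 11.93 and 11.97 in sham rats. Of the ligated saline rats only number 6 lay within the sham range. The Hadhb change was -0.25 ± 0.0744 (adjusted p = 0.00838). It did not pass after quantile normalization, where it was -0.13 (adjusted p = 0.11), and was -0.44 with equal array medians (adjusted p = 0.000182).

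**Figure D2:**
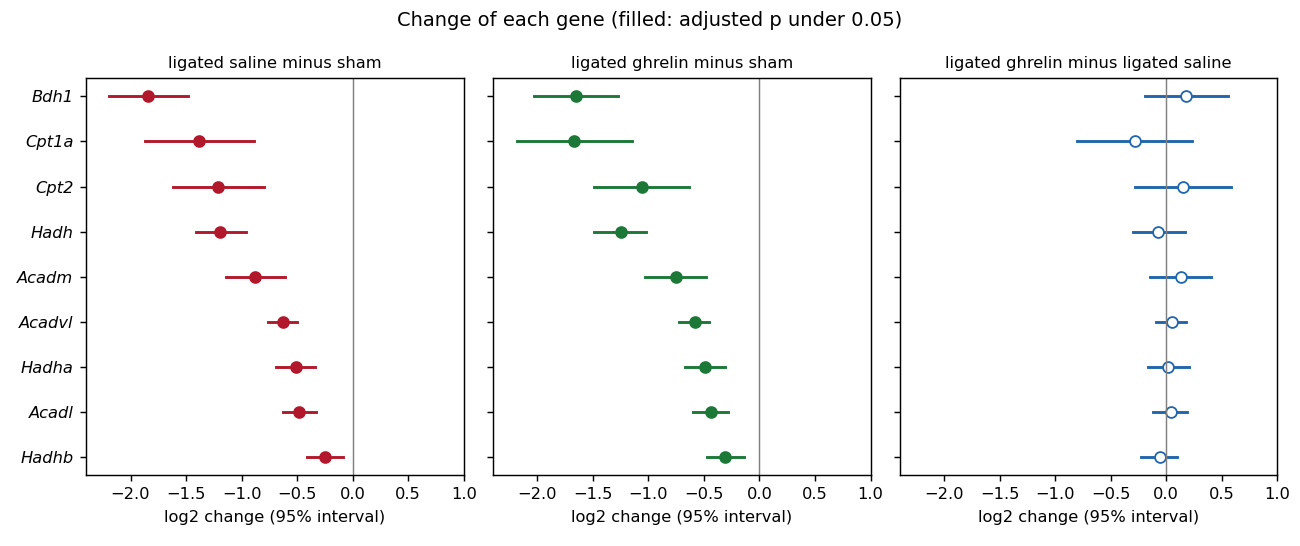
Log2 change of each gene with its 95% interval from limma, for ligated saline minus sham, ligated ghrelin minus sham and ligated ghrelin minus ligated saline (filled points: adjusted p under 0.05). The 9 genes lie below 0 in both comparisons with sham, from -1.84 for Bdh1 to -0.25 for Hadhb in ligated saline rats, and each interval for ghrelin against saline holds 0.

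The subunits were also compared within each array, which removes any scaling common to both. This comparison and those of 2 probe sets of a gene were not listed in the analysis plan. Hadha minus Hadhb was -0.33, -0.31, -0.22, -0.32 and -0.32 in ligated ghrelin rats. It lay between -0.65 and -0.23 in ligated saline and between -0.22 and -0.03 in sham rats. No ligated saline rat reached the sham range, although the nearest values differed by little. The probe set of Hadha had thus changed more than that of Hadhb. The difference of means, -0.26 for ligated saline minus sham, had an exact two-sided permutation p of 0.00216, the smallest that 6 against 6 allows (adjusted p = 0.0195 over 9 such tests), and with each rat left out it lay between -0.29 and -0.21. For ligated ghrelin minus sham it was -0.18 (exact permutation p = 0.00866, adjusted p = 0.039). For ligated ghrelin minus ligated saline it was 0.08 (exact permutation p = 0.165), and 0.11 without ligated saline 2 (exact permutation p = 0.0238). The 2 probe sets of Cpt1a, dimmer minus brighter, also differed for ligated saline minus sham by -0.27 (exact permutation p = 0.0801, adjusted p = 0.12). Those of Bdh1 likewise differed by -0.27 (exact permutation p = 0.0368, adjusted p = 0.0828). Whether the difference between Hadha and Hadhb lies in the genes or in the probe sets was not tested.

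**Figure D3:**
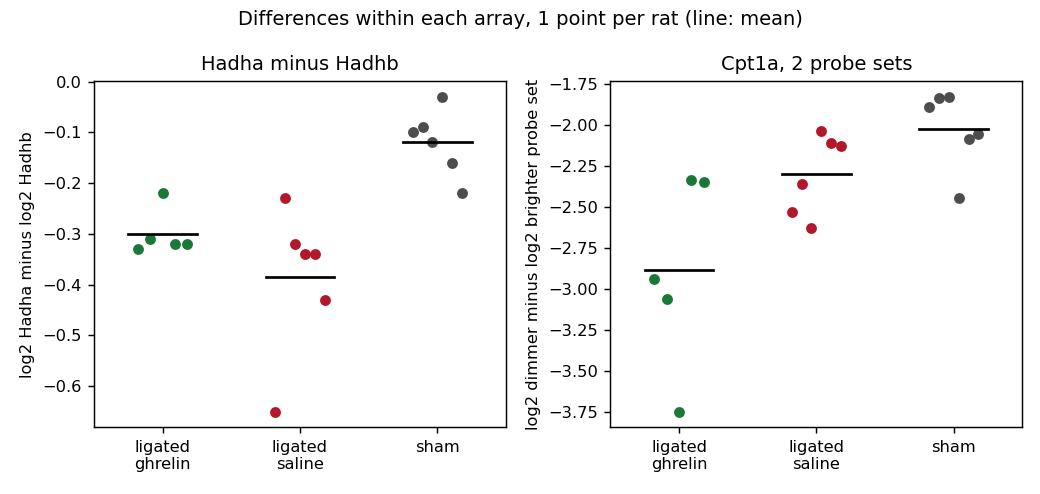
Differences within each array in log2 units, 1 point per rat, with the group mean, for ligated ghrelin, ligated saline and sham rats. Left, Hadha minus Hadhb, where ligated saline rats lie between -0.65 and -0.23 and sham rats between -0.22 and -0.03. Right, the dimmer minus the brighter probe set of Cpt1a, where ligated ghrelin 3 has the lowest value, -3.75.

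Hadha and Hadhb lie head to head on chromosome 6 of GRCr8, Hadhb on the minus strand at chr6:31873404-31907557 and Hadha on the plus strand at chr6:31907801-31947434. Only 243 bases separate the gene models. They are shown because both gene models run away from them in opposite directions, at chr6:31907558-31907800, plus strand, 5′ to 3′, from RefSeq. The Hadhb start used for the promoter windows below lies 57 bases inside its gene model. Capitals mark GGGCGG on either strand, the GC box bound by Sp1.

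Hadha and Hadhb, between the gene models: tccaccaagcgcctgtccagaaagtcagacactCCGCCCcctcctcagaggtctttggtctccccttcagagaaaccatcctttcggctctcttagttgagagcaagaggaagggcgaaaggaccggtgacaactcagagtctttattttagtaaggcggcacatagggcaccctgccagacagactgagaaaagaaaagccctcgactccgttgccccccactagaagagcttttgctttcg

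Bdh1, which interconverts acetoacetate and 3-hydroxybutyrate in the mitochondrion, had the largest change. It lies at chr11:82806125-82848133 on the minus strand. Its brighter probe set, 1368387_at, read 10.34, 10.57, 9.88, 10.08 and 10.32 in ligated ghrelin rats. The lowest, median and highest values were 9.65, 10.00 and 10.55 in ligated saline and 11.53, 11.92 and 12.14 in sham rats. The highest ligated rat stayed below the lowest sham rat, and the change of -1.84 ± 0.17 left 28.0% of the sham level (adjusted p = 1.36e-07). The dimmer probe set, 1374765_at, changed by -2.11 ± 0.181, to 23.2% (adjusted p = 6.08e-08).

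Of the 6 other ketone body genes tested, 2 were lower, 1 was higher and 3 were not called. Among all genes tested, 27.2% were called lower and 37.5% higher. Acat1, the thiolase that makes acetoacetyl-CoA, changed by -2.07 ± 0.137 (adjusted p = 3.65e-09), with ligated saline rats between 9.93 and 10.81 and sham rats between 12.28 and 12.57. Bdh2, a cytosolic dehydrogenase, changed by -0.90 ± 0.354 (adjusted p = 0.0362). The gene that was higher was Oxct1, the enzyme that burns ketone bodies and that normal hepatocytes make little of, at 2.91 ± 0.255 (adjusted p = 7.35e-08), with 6.32 to 7.52 in ligated saline and 3.53 to 4.98 in sham rats, a sham range that reaches below the filter level.

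Of the other enzymes of mitochondrial oxidation, 12 of 15 were lower, none was higher, and Acadsb, Acad8 and Acad9 were not called. The shares over all genes tested were 27.2% lower and 37.5% higher. The median change of the 15 was -0.75. Acaa2, the mitochondrial thiolase, changed by -0.92 ± 0.102 (adjusted p = 9.68e-07) and Etfb, a subunit of the flavoprotein that accepts electrons from the dehydrogenases, by -0.95 ± 0.0903 (adjusted p = 1.8e-07). Etfdh, which passes these electrons to ubiquinone, changed by -0.97 ± 0.15 (adjusted p = 3.19e-05). The other subunit of the flavoprotein, Etfa, changed by -0.20 ± 0.0735 (adjusted p = 0.0254). Acadsb, Acad8, Acad9 and Etfa, like Bdh2 and Crat, are named after their values were seen.

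Genes of carnitine transport and acyl-CoA activation were mixed, with 6 of 11 lower, 2 higher and 3 not called. Of all genes tested, 27.2% were called lower and 37.5% higher. The medium-chain acyl-CoA synthetase gene Acsm3 lay between 2.89 and 4.76 in ligated saline and between 6.75 and 9.45 in sham rats, a change of -4.52 ± 0.451 (adjusted p = 3.03e-07), with a ligated mean of 3.70 that is below the filter level. Acss1, which activates acetate in mitochondria, was higher at 1.96 ± 0.186 (adjusted p = 1.8e-07), with a sham mean of 2.83 that is also below that level. Crat, which makes acetylcarnitine, was higher at 0.83 ± 0.253 (adjusted p = 0.00913).

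**Figure D4:**
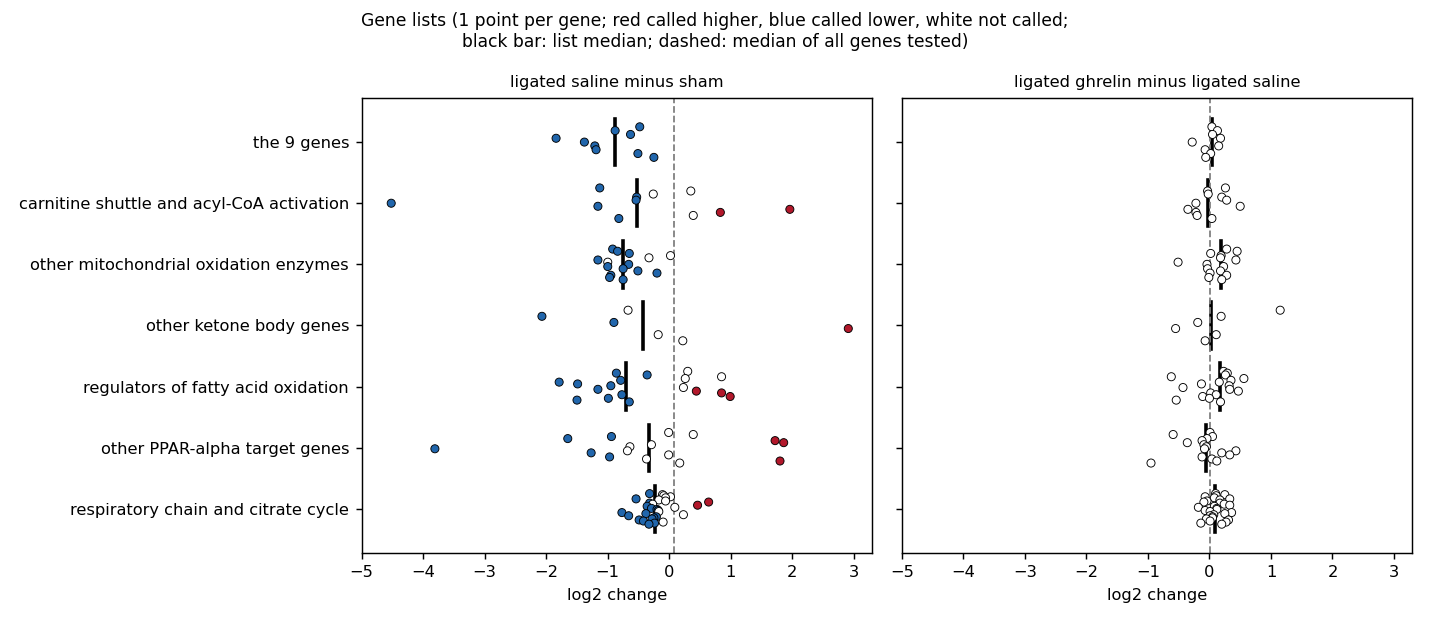
Log2 change of every gene tested in the 9 genes and in 6 lists of related genes, 1 point per gene, with the list median (black bar) and the median of all genes (dashed). For ligated saline minus sham the median of the 9 genes is -0.88 and that of the respiratory chain and citrate cycle -0.23, and for ligated ghrelin minus ligated saline no gene of the 7 groups is called.

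Among regulators of fatty acid oxidation, 11 of 18 were lower, 3 were higher and 4 were not called. The shares over all genes tested were 27.2% lower and 37.5% higher. Ppara itself lay below the filter level, between 2.21 and 2.30 in ligated ghrelin, 2.19 and 2.92 in ligated saline and 2.44 and 4.12 in sham rats, and was not tested. Hnf4a, a nuclear receptor that maintains hepatocyte gene expression, changed by -0.79 ± 0.097 (adjusted p = 2.83e-06). Mlycd, which degrades the malonyl-CoA that inhibits Cpt1a, changed by -0.95 ± 0.114 (adjusted p = 2.2e-06). Prkaa1, a catalytic subunit of the AMP-activated kinase, was higher at 0.99 ± 0.0899 (adjusted p = 1.05e-07), while Prkaa2, the other catalytic subunit, named after its values were seen, changed by -0.99 ± 0.2 (adjusted p = 0.00044). Ppargc1a, a coactivator of PPAR-alpha, was higher at 0.85 ± 0.301 (adjusted p = 0.0221), with a lowest value of 3.54 and a median of 3.84 in sham rats, so that most sham rats lay below the filter level. Its call was lost without ligated saline 2 (0.66, adjusted p = 0.0565), without ligated saline 3 (0.70, adjusted p = 0.0572), after quantile normalization (0.61, adjusted p = 0.0807) and with medians set equal (0.66, adjusted p = 0.0678). Fgf21, a fasting hormone of the liver, was not called (0.85 ± 0.675, adjusted p = 0.287), and ligated saline 5 lay at 3.85 where the other 5 lay between 7.20 and 9.00.

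Of 16 known target genes of PPAR-alpha outside the 9, 5 were lower, 3 were higher and 8 were not called, beside 27.2% lower and 37.5% higher among all genes tested. Fabp1, the fatty acid binding protein of hepatocytes, changed by -1.27 ± 0.164 (adjusted p = 4.95e-06). The 3 that were higher were Ucp2, an uncoupling protein homologue, at 1.80 ± 0.228 (adjusted p = 3.87e-06), Cd36, a fatty acid uptake receptor, at 1.86 ± 0.328 (adjusted p = 0.000117), and Aqp7, a glycerol channel, at 1.72 ± 0.528 (adjusted p = 0.00962). Cd36 and Aqp7 are named after their values were seen. Pdk4, which restrains pyruvate oxidation in fasting, showed a change of -0.01 ± 0.398 (95% interval -0.85 to 0.83, adjusted p = 0.986). Ehhadh, the peroxisomal bifunctional enzyme, had -0.68 ± 0.314 (adjusted p = 0.0692).

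In the respiratory chain and citrate cycle, 17 of 30 genes were lower, 2 were higher and 11 were not called, and the median change was -0.23. Among all genes tested, 27.2% were called lower and 37.5% higher. Ndufs3, a complex I subunit, changed by -0.77 ± 0.0916 (adjusted p = 2.02e-06) and Sdha, the flavoprotein of complex II, by -0.66 ± 0.0932 (adjusted p = 1.22e-05). The 2 that were higher were Cs, citrate synthase, at 0.64 ± 0.102 (adjusted p = 4.04e-05), and Idh3a, a subunit of isocitrate dehydrogenase, at 0.46 ± 0.113 (adjusted p = 0.00205), both named after their values were seen.

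Most markers of other cell types were higher in ligated saline than in sham rats. Called higher were 11 of 11 bile duct, 11 of 12 stellate cell and myofibroblast and 9 of 11 macrophage markers. The same held for 5 of 6 other leukocyte markers tested and 4 of 8 endothelial markers. In the stellate cell, macrophage and endothelial lists 1 marker each was called lower. Of all genes tested, 37.5% were called higher and 27.2% lower. The summed intensity of 11 bile duct markers lay between 8464 and 12445 in ligated ghrelin, 6650 and 19190 in ligated saline and 908 and 1223 in sham rats, where Cftr, Sctr, Cldn7 and Cldn4 were below the filter level on every array. That of 12 stellate cell and myofibroblast markers lay between 18055 and 23830 in ligated ghrelin, 20881 and 43510 in ligated saline and 3995 and 5520 in sham rats. For 11 macrophage markers the ranges were 24877 to 35036 in ligated ghrelin, 30152 to 45028 in ligated saline and 13135 to 21337 in sham rats. Other leukocyte markers, 10 in number, gave 4479 to 8647 in ligated ghrelin, 2979 to 8180 in ligated saline and 609 to 1393 in sham rats, with Cd3d and Cd79b below the filter level in all groups. The sums of 8 endothelial markers overlapped in all groups, at 5250 to 7707 in ligated ghrelin, 6673 to 8344 in ligated saline and 6093 to 8349 in sham rats.

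Where 27.2% of all genes tested were called lower and 37.5% higher, 5 of 14 hepatocyte markers were lower in ligated saline than in sham rats. None of these markers was higher and 9 were not called, with a median change of -0.05. Their summed intensity lay between 336095 and 376883 in ligated ghrelin, 317526 and 363451 in ligated saline and 369896 and 406919 in sham rats. The 5 were Cyp3a2, a steroid-oxidising cytochrome P450, at -2.21 ± 0.483 (adjusted p = 0.000817), the apolipoprotein Apoa2 at -1.30 ± 0.307 (adjusted p = 0.0015), the bile acid uptake carrier Slc10a1 at -1.29 ± 0.144 (adjusted p = 1.02e-06), Tat, which breaks down tyrosine, at -0.91 ± 0.343 (adjusted p = 0.0295), and Ttr, a thyroid hormone carrier, at -0.20 ± 0.0627 (adjusted p = 0.0109). All but Ttr are named after their values were seen. Alb, which encodes albumin, had a change of -0.05 ± 0.05 (adjusted p = 0.445) at means of 15.84 in ligated saline and 15.88 in sham rats. The part of the cell mixture in the changes of the 9 genes was not tested.

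The comparison of ligated ghrelin with ligated saline rats asked what the hormone did in the ligated liver. None of the 9 genes was called, and by the probe set that represents each gene, its brightest, none had an unadjusted limma p under 0.05, where 2.34% of all genes were called and 22.0% had such a p. The differences ran from -0.28 for Cpt1a to 0.18 for Bdh1, with a median of 0.04, and the groups overlapped in all 9. The background shares without overlap were 1.49% of genes lower and 3.04% higher. Under each of the alternatives run, 0 of the 9 were called. The number of genes called among all tested depended on single rats: 171 higher and 57 lower with all rats, between 18 higher and 4 lower without ligated ghrelin 2 and 291 higher and 159 lower without ligated saline 4. Of the 11 leave-outs, that of ligated saline 2 kept the count within 1.5 times.

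The precision differed between genes. For Acadvl the difference was 0.05 with a 95% interval of -0.09 to 0.18, for Acadl 0.04 with -0.12 to 0.19, for Hadhb -0.06 with -0.23 to 0.10 and for Hadha 0.02 with -0.16 to 0.21. For Hadh it was -0.07 with -0.30 to 0.17 and for Acadm 0.13 with -0.15 to 0.40. The intervals were widest in Bdh1 (0.18, from -0.19 to 0.56), Cpt2 (0.15, from -0.28 to 0.58) and Cpt1a (-0.28, from -0.80 to 0.23). A missed threshold does not show that the groups were alike.

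The probe sets of Cpt1a gave unlike values for ghrelin. The dimmer one, 1367836_at, read 7.66, 7.63, 6.37, 8.36 and 8.99 in ligated ghrelin rats, with 7.69, 8.70 and 9.62 as lowest, median and highest in ligated saline and 9.93, 10.35 and 10.79 in sham rats. Of the ligated ghrelin rats, 3 lay below all ligated saline rats. Its difference for ligated ghrelin minus ligated saline was -0.87 ± 0.39 (adjusted p = 0.211), with an unadjusted limma p under 0.05. That of the brighter one was -0.28 ± 0.242 (adjusted p = 0.519). Within arrays, the dimmer minus the brighter probe set averaged -2.89 ± 0.585 in ligated ghrelin, -2.30 ± 0.243 in ligated saline and -2.03 ± 0.235 in sham rats (SD). This differed for ligated ghrelin minus sham by -0.86 (exact permutation p = 0.013, adjusted p = 0.039), and for ligated ghrelin minus ligated saline by -0.59 (exact permutation p = 0.0519, adjusted p = 0.0935). Ligated ghrelin 3 was the lowest in both probe sets and also had the highest 3′ minus 5′ control values of all 17 rats, 2.62 for beta-actin and 0.62 for GAPDH, a sign of RNA quality whose part was not tested. Without this rat the dimmer probe set gave -0.52 (adjusted p = 0.42) and the difference within arrays for ligated ghrelin minus ligated saline was -0.37 (exact permutation p = 0.114). This test within arrays passed 0.05, unadjusted, without ligated ghrelin 4, ligated ghrelin 5 or ligated saline 3. For the brighter probe set 4 rats moved the value by over 1.5 times: it was -0.14 without ligated ghrelin 3 (adjusted p = 0.783), -0.13 without ligated saline 6 (adjusted p = 0.774), -0.44 without ligated saline 1 (adjusted p = 0.336) and -0.45 without ligated ghrelin 5 (adjusted p = 0.331). For Bdh1 the dimmer probe set gave 0.38 ± 0.19 (adjusted p = 0.267), with all 5 ligated ghrelin rats above the ligated saline mean.

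No gene of the 6 related lists was called for ligated ghrelin minus ligated saline either. The medians of the lists lay between -0.05 for PPAR-alpha targets and 0.18 for the other enzymes of mitochondrial oxidation. The gene with the lowest p of all was Ndufs3, with a difference of 0.36 ± 0.096 (adjusted p = 0.0554), and 4 more respiratory chain and citrate cycle genes had an adjusted p between 0.0557 and 0.079. The lowest p of 3 other lists belonged to Acsm1, a butyryl-CoA synthetase, with 0.28 ± 0.081 (adjusted p = 0.0712), Hnf4a with 0.35 ± 0.102 (adjusted p = 0.0714) and Vnn1, a pantetheinase, with -0.95 ± 0.288 (adjusted p = 0.08). Hnf4a lay between 12.21 and 12.40 in ligated ghrelin and between 11.67 and 12.20 in ligated saline rats, without overlap. Etfb, the lowest of the other oxidation enzymes, had 0.28 ± 0.0947 (adjusted p = 0.104), Acads 0.43 ± 0.159 (adjusted p = 0.137) and Aacs, which spends acetoacetate on lipid synthesis, 1.15 ± 0.441 (adjusted p = 0.152). Without ligated saline 4, 4 of the 30 genes of the respiratory chain and citrate cycle were called higher. In that setting 291 of all 9736 genes tested were called higher, against 171 with all rats.

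Against sham rats, all 9 genes were lower in ligated ghrelin rats and none of the 9 overlapped, where 21.2% of all genes were called lower and 14.0% were lower without overlap. This comparison shares the sham rats with that of ligated saline, and its values are given beside them. The median change was -0.75, against -0.88 for ligated saline. Cpt1a had -1.67 ± 0.242 in ligated ghrelin and -1.38 ± 0.23 in ligated saline rats. Bdh1 had -1.65 ± 0.178 in ligated ghrelin and -1.84 ± 0.17 in ligated saline rats, and Hadh had -1.25 ± 0.112 in ligated ghrelin and -1.19 ± 0.107 in ligated saline rats. For Cpt2 the change was -1.06 ± 0.204 in ligated ghrelin and -1.21 ± 0.194 in ligated saline rats, and for Acadm it was -0.75 ± 0.131 in ligated ghrelin and -0.88 ± 0.125 in ligated saline rats. Smaller changes were those of Acadvl at -0.58 ± 0.0642 in ligated ghrelin and -0.63 ± 0.0612 in ligated saline rats, and of Hadha at -0.49 ± 0.0871 in ligated ghrelin and -0.51 ± 0.0831 in ligated saline rats. Acadl had -0.44 ± 0.075 in ligated ghrelin and -0.48 ± 0.0715 in ligated saline rats, and Hadhb -0.31 ± 0.0781 in ligated ghrelin and -0.25 ± 0.0744 in ligated saline rats. The adjusted p for ligated ghrelin minus sham ran up to 0.00321, in Hadhb. The 3′ minus 5′ value of the GAPDH controls averaged 0.27 ± 0.206 in ligated ghrelin and 0.10 ± 0.0921 in sham rats (SD), with an exact permutation p of 0.0909 and of 0.0159 without sham 4, and its part in these changes was not tested.

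Rats of a ligated group differed in depth of the decrease. The mean of the 9 genes relative to the sham mean was -1.03, -0.80, -1.10, -0.91 and -0.72 in the 5 ligated ghrelin rats, and lay between -1.23, in number 1, and -0.65, in number 6, of the 6 ligated saline rats. Sham rats lay between -0.12 and 0.09. Ligated saline 1 was the lowest of its group in 6 of the 9 genes and also had the group's lowest hepatocyte sum, 317526, and its highest bile duct and stellate cell sums, 19190 and 43510. With number 2 set aside, the bile duct sums of ligated saline 1, 3, 5, 4 and 6 were 19190, 17889, 16246, 8839 and 7781. Their means of the 9 genes rose in that order, from -1.23 to -0.65, with -0.93 in number 5. Ligated saline 2 departed from it, with the group's lowest bile duct sum, 6650, and a mean lower than in numbers 4, 5 and 6. Stellate cell sums were 39012, 36979 and 31818 in numbers 2, 3 and 5, and 27639 and 20881 in numbers 6 and 4. The means of numbers 2, 3 and 5 also lay between that of number 1 and those of numbers 4 and 6. Ligated saline 5 had the highest hepatocyte sum, 363451, but a mean lower than in numbers 4 and 6. In the ghrelin group the means did not rise in the order of falling bile duct sums. Ligated ghrelin 4 had that group's highest bile duct and stellate cell sums, 12445 and 23830, with the middle mean, -0.91. Ligated ghrelin 3 had the lowest mean, -1.10, with sums of 9723 and 22806. Ligated ghrelin 5 had the highest mean, -0.72, and the lowest bile duct sum, 8464. A link between these sums and the 9 genes was not tested in either group. Ligated saline 6 was the highest in 7 genes. In the ghrelin group numbers 1 and 3 were each the lowest in 4 genes and number 5 was the highest in 5. With any 1 rat left out, all 9 genes stayed called in both comparisons with sham.

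**Figure D5:**
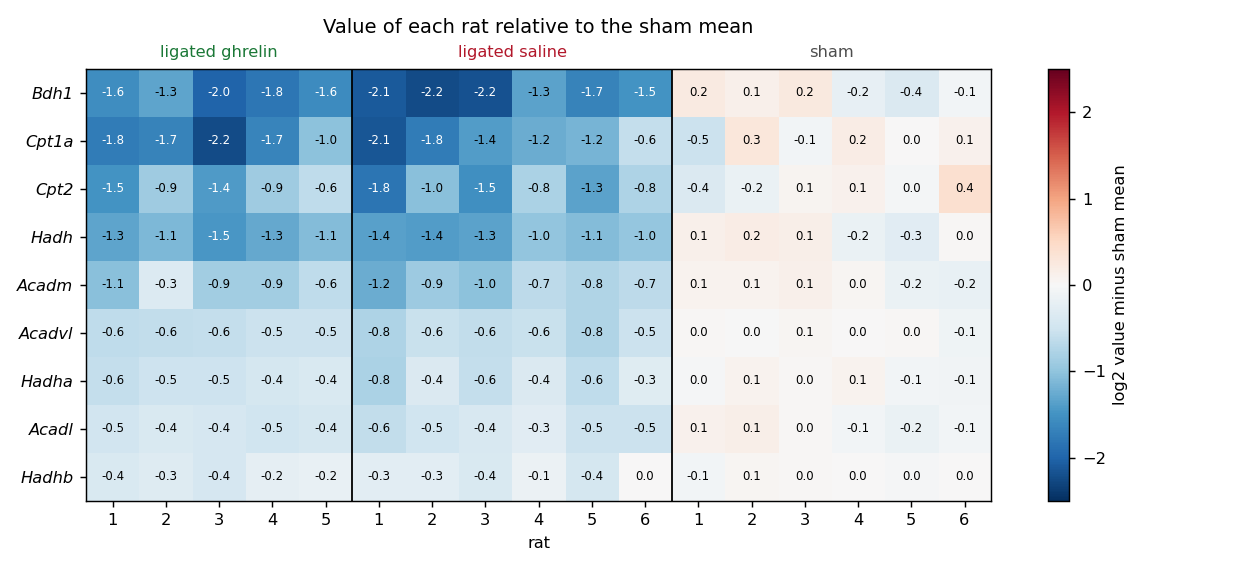
Log2 value of each gene in each rat minus the sham mean of that gene (colour and number), for ligated ghrelin, ligated saline and sham rats, with genes ordered by their change in ligated saline rats. The 11 ligated rats are below the sham mean in all 9 genes, Hadhb in ligated saline 6 by a difference that rounds to 0.00, and the darkest rows are Bdh1 and Cpt1a.

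The genes whose pattern came closest to the mean of the 9 over the 17 arrays, by root mean square distance after subtracting each gene's sham mean, were Sdc2 (0.105 log2 units), Derl2 (0.118), Hmox2 (0.13), Pon1 (0.131) and Cox16 (0.133). Sdc2 is a cell-surface proteoglycan, Derl2 a protein of endoplasmic reticulum quality control, Hmox2 the constitutive haem oxygenase, Pon1 the paraoxonase carried on high-density lipoprotein and Cox16 an assembly factor of cytochrome c oxidase. Among the 9, Acadm was nearest to the mean, at 0.149, and Bdh1 farthest, at 0.699.

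Promoter sequence was compared as a feature that took no part in choosing the genes. RefSeq windows of 250 bases before to 50 bases after the start were matched for 8 of the 9 genes, all but Acadl. The start used lay at the edge of the gene model given above in Acadm, Hadh and Hadha. It lay inside the gene model by 57 bases in Hadhb, 81 in Acadvl, 529 in Cpt2, 2279 in Cpt1a and 5497 in Bdh1. GGGCGG was found on either strand in 6 of the 8 (Cpt2, Acadm, Hadh, Hadha, Hadhb and Bdh1) and in 33.1% of 33469 rat windows. The windows of Hadha and Hadhb share 200 bases, and the 1 match of Hadha is the same bases as 1 of the 4 of Hadhb, so that the 6 genes are not 6 separate observations. AGGTCA, the core letters bound by many nuclear receptors, was found in Acadvl and Hadhb and in 16.2% of windows. The direct repeat AGGTCANAGGTCA, the form read by PPAR-alpha with its partner RXR, was in none of the 8 and in 0.0538% of windows, and overlaps the AGGTCA count. TATAAA was in none of the 8 and in 14.2% of windows, and CCAAT was in Hadha alone and in 37.5%. A match is a description of letters and not a binding site.

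The sequences before the gene models of Hadh, at chr2:222504447-222504696, and of Acadvl, at chr10:55236787-55236955, are shown as one that holds GGGCGG 3 times and one that holds AGGTCA. Over the whole windows Hadhb had 4 matches to GGGCGG, and Cpt2, Acadm and Hadh had 3 each. Both are on the minus strand of GRCr8, from RefSeq, read 5′ to 3′ toward the gene. Capitals mark GGGCGG or AGGTCA on either strand.

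Hadh: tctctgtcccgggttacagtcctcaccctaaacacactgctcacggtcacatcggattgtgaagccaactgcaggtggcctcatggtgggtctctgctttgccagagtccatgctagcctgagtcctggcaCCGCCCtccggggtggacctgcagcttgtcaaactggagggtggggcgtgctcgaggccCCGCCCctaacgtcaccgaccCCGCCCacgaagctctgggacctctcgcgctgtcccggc
Acadvl: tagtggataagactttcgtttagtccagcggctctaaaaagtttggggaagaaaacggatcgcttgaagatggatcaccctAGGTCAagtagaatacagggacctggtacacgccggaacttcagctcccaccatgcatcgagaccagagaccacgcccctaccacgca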

How the data were processed

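Liver RNA of 17 rats (5 ligated ghrelin, 6 ligated saline, 6 sham) was hybridised to 1 array each, and each array is a separate rat per the labels. Each deposited value is the intensity of a probe set on the linear scale, made by the authors with GCRMA per the submitters' processing notes. The version of GCRMA is not given in the sources used here. GCRMA corrects background and normalises between arrays, so that a shift common to a whole array may not be fully kept. The deposited array medians still differed between groups. They were 14.2 to 14.7 in sham, 15.4 to 16.4 in ligated ghrelin and 16.1 to 17.6 in ligated saline rats. The deposited intensity values were converted to log2 without a pseudocount, and none was missing. Raw scanner files were not used here.

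Probe sets with an intensity above 15.5, the median of all deposited values, on 5 or more arrays were kept, which left 15965 of 31042. The platform annotation gives 1 symbol to 20826 probe sets, several to 436 and none to 9780. Of these, 20758 were matched by identifier to RefSeq on GRCr8, which changed 0 symbols. A gene is its kept 1-symbol probe set with the highest mean, and 9736 genes were tested. GRCr8 served for names, positions and promoter sequence.

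A model of 3 group means was fitted with limma 3.58.1 in R 4.3.3 with eBayes (14 residual and 2.54 prior degrees of freedom). P values were adjusted by Benjamini-Hochberg over kept probe sets, with 0.05 as threshold. Differences within arrays, which the analysis plan did not list, were tested by exact two-sided permutation (scipy 1.17.1). The fit was tested on simulated data. The number of arrays limits the precision. Per the labels there is no batch to test. Names follow a rule: the 9 genes, 14 chosen pathway genes (not all are reported here), in each pathway list the 2 lowest p values for ligation and the lowest for ghrelin, up to 3 markers per cell type, and the 5 genes of nearest pattern; others are said to be named after their values were seen. The genes, lists and rules were chosen with earlier results of these data known. Alternatives were no filter, a filter on all 17 arrays, quantile normalization, equal array medians, the mean of a gene's probe sets, only the 2 groups compared, trend and robust variance, array weights, and each rat left out; those on Hadha minus Hadhb, on the dimmer probe sets of Cpt1a and Bdh1 and on RNA controls were added after seeing the data.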

Additional observations from a re-analysis of the deposited data

Results flagged for a closer look

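In 15 of 177 groups of rats checked, for the 9 genes and the other named genes, 1 rat stood far from the rest of its group by Dixon's test; chance flags about 1 in 20 groups. Among the 9 genes this was sham 6 for Acadvl, at 11.08 where the other 5 lay between 11.17 and 11.22. Among genes of oxidation and its regulators, Acads was high in sham 4 at 11.12, Etfdh was low in ligated ghrelin 3 at 9.98, and Ehhadh was low in ligated saline 1 at 9.65 where the other 5 lay between 11.30 and 12.05. Fgf21 was low in ligated saline 5 at 3.85, Acss1 was low in sham 3 at 2.67, and Hnf4a was low in ligated ghrelin 1 at 12.21. In the respiratory chain Ndufs3 was low in sham 3 at 10.98 and Sdha was low in ligated ghrelin 3 at 11.19, and Pon1, near in pattern to the 9 genes, was low in ligated saline 1 at 12.82. Among cell type markers Alb was low in sham 1 at 15.81, Krt7 was high in sham 4 at 4.78, Acta2 was low in sham 2 at 2.92, Col1a1 was high in ligated ghrelin 3 at 9.88 and Des was high in ligated ghrelin 4 at 6.08. Ligated ghrelin 3, the rat of 3 of these, also had the highest 3′ minus 5′ control values, and the part of RNA quality in them was not tested.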

How the results depend on the processing

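All 9 genes stayed called lower for ligated ghrelin minus sham under each alternative run, and for ligated saline minus sham under each apart from quantile normalization, where 8 of 9 were called and Hadhb had -0.13 (adjusted p = 0.11). For ligated ghrelin minus ligated saline 0 of 9 were called under each. Uncalled values of that comparison changed sign where they were near 0: Hadh was 0.00138 and Hadhb 0.01 with array medians set equal, and Hadha was -0.02 with array weights and between -0.03 and 0.06 with 1 rat left out. The mean over a gene's probe sets, which includes the dim ones, made the ligation changes of Hadh -0.73 and of Hadha -0.21. With each rat left out, the ligation changes ran from -1.54 to -1.23 for Cpt1a, from -1.93 to -1.76 for Bdh1 and from -0.30 to -0.21 for Hadhb.

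Counts of related genes moved more. Ketone body genes called fell to 1 in both comparisons with sham under the filter on all 17 arrays, which leaves fewer genes tested. For ligated ghrelin minus ligated saline, counts of 0 became 1 for carnitine and activation genes with trend and robust variance, and 1 for regulators with array medians set equal or only the 2 groups compared. With 1 rat left out they lay between 0 and 1 for carnitine and activation genes and for PPAR-alpha targets. Respiratory chain and citrate cycle genes gave 2 under the filter on all 17 arrays, 2 after quantile normalization, 5 with array medians set equal, 4 with trend and robust variance and 0 to 4 with 1 rat left out, and for ligated ghrelin minus sham 20 without a filter and 21 with medians set equal, against 12. Counts over all genes tested moved under the same settings. For ligated ghrelin minus ligated saline, 171 of 9736 genes were called higher in the main fit. The count was 247 of 8727 under the filter on all 17 arrays and 287 after quantile normalization. It was 395 with array medians set equal and 242 with trend and robust variance. For ligated ghrelin minus sham, 2066 genes were lower in the main fit, 5270 of 14217 without a filter and 2828 with medians set equal. The causes were not tested. Hadha minus Hadhb between ligated ghrelin and ligated saline passed without ligated saline 2. No paired analysis was possible because the numbers in the labels run on across groups and are not shared between them. The dimmer probe set of Cpt1a lay between -1.17 and -0.52 for ligated ghrelin minus ligated saline with 1 rat left out, an alternative added after seeing the data. The number of arrays limits the precision, and a gene below the filter level in a group has no well measured change.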

Other observations

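Over the groups the 3′ minus 5′ value of the beta-actin controls averaged 2.11 ± 0.302 in ligated ghrelin, 1.94 ± 0.11 in ligated saline and 2.09 ± 0.167 in sham rats (SD, n = 5, 6 and 6). The difference of ligated saline minus sham, -0.15, had an exact permutation p of 0.0823, and of 0.00866 without sham 6. The GAPDH value averaged 0.27 ± 0.206 in ligated ghrelin, 0.12 ± 0.0635 in ligated saline and 0.10 ± 0.0921 in sham rats, with an exact permutation p of 0.0736 for ligated ghrelin minus ligated saline, and of 0.0476 without ligated saline 3. For ligated ghrelin minus sham the GAPDH difference, 0.17, had an exact permutation p of 0.0909. This passed 0.05 without sham 4, at 0.0159, and without ligated ghrelin 5.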
